A study of Brachypodium distachyon with 9 samples.

Results

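The genes examined here encode the chloroplast's own gene expression machinery in the grass Brachypodium distachyon, except clpP, a protease gene counted with them throughout. They were taken from the deposited annotated table as every chloroplast gene row whose gene name begins with rps, rpl, rpo, matK, infA or clpP. That gave 30 features of 28607 in the count table, and 25 distinct genes, since 5 genes lie in the inverted repeat and are listed as a pair of copies. By role they were 14 features for proteins of the small ribosomal subunit, 10 for the large subunit, 3 for subunits of the plastid RNA polymerase, and 1 each for maturase, translation initiation factor and protease. All 30 passed the filter on low counts.

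Whole aboveground shoots of the 21-3 background were sampled at the 5-leaf stage, 3 h post dawn, after 18 days of growth and 15 days without water. Wild type and the mutants gf14h-1 and hdac19-2b were each represented by 3 libraries. Per the labels, both mutants came from CRISPR/Cas9 editing and carry a homozygous change in exon 1 with an early stop codon, in the 14-3-3 gene GF14h or in HISTONE DEACETYLASE 19. Each mutant is represented by a single allele, and wild type and mutants alike were droughted, so no watered plants enter any comparison.

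Chloroplasts keep a small genome and express it with ribosomes and an RNA polymerase of bacterial ancestry. Part of the ribosomal proteins and the core polymerase subunits are encoded in the chloroplast itself, and the rest are imported from the cytosol. The core polymerase transcribes photosynthesis genes above all, while the rpoB gene and its neighbours are read by a separate, nucleus-encoded polymerase. Chloroplast genes are largely transcribed as long units that span several genes, and most chloroplast RNA lacks the long poly(A) tail of nuclear messengers.

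The libraries were poly(A)-selected, so the values below count what passed that selection. Library totals ran from 3302835 to 36632994 counts, and 3 counts in a library corresponded to 0.0819 to 0.908 CPM. Chloroplast features held 0.876% to 1.61% of the counts of a library. Among leaf chloroplast markers, rbcL, the large subunit of Rubisco, stood at 2388 to 6306 CPM over the 9 libraries and psbA, the photosystem II D1 protein, at 54.9 to 142 CPM. The markers psaA, psaB, petB and atpB had at least 1.76 CPM in every library. CPM are read counts scaled to a common library size, here after TMM scaling, a correction for library make-up.

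One library stood apart. The gf14h-1 replicate 3 library was the shallowest of the 9, at 3302835 counts, and gave the lowest CPM of all libraries for 18 of the 30 features. The median of its log2 ratios to each feature's median over libraries was −0.997, against −0.32 to 0.25 in the other 8. The machinery features made up 3.26% of its chloroplast counts. The corresponding shares were 9.20%, 7.43% and 8.19% in wild type replicates 1, 2 and 3, 10.2% and 9.49% in gf14h-1 replicates 1 and 2, and 9.76%, 9.17% and 11.4% in hdac19-2b. Ribosomal RNA took 70.9% of the chloroplast counts of gf14h-1 replicate 3 and 39.5% to 54.6% of those of the others. With rRNA and tRNA left out, the machinery share was 11.2% in gf14h-1 replicate 3 and 14.7% to 21.8% in the others. The medians over the machinery and the fold changes nearest to a call are therefore also given without this library.

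**Figure D1:**
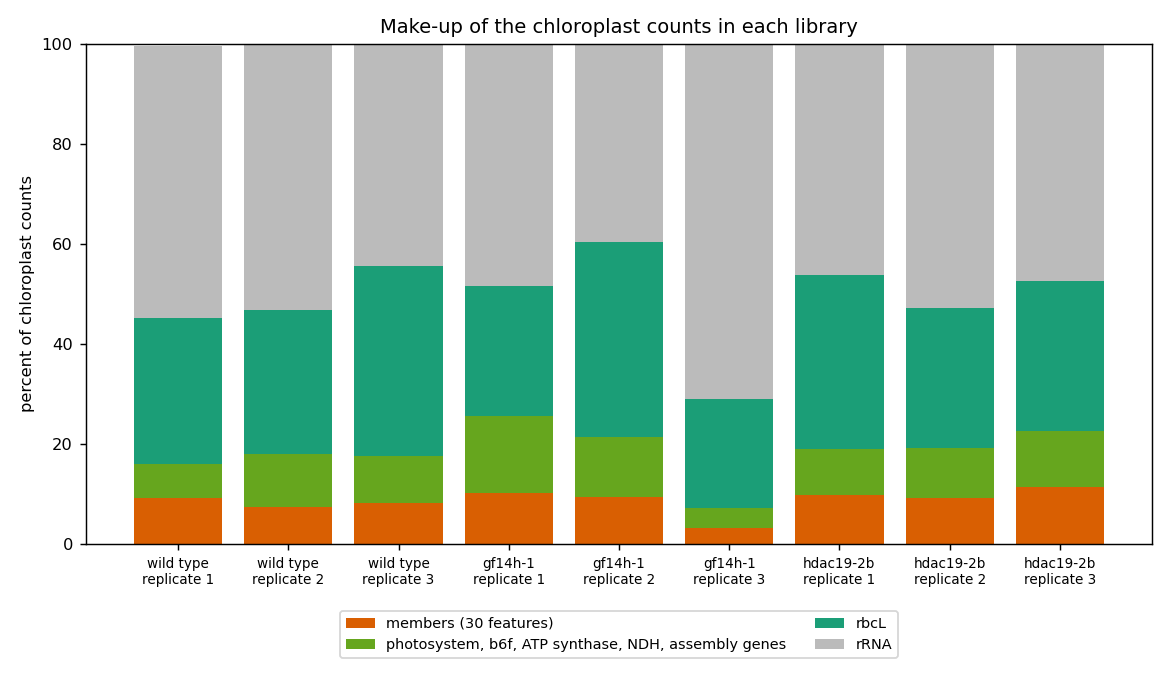
Share of the chloroplast counts (vertical axis, percent) taken by the 30 machinery features, by other protein genes except rbcL, by rbcL and by rRNA, 1 bar per library; tRNA and unclassed counts are not drawn. The gf14h-1 replicate 3 bar holds 3.26% machinery counts and 70.9% rRNA, while the other 8 hold 7.43% to 11.4% machinery counts.

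Levels were compared between genes as CPM per kb of annotated span, which includes introns where a gene has one. The rps12 feature was left out of this order. It is a trans-spliced gene of the small subunit, and its deposited span of 22786 bases covers 19 other annotated features. Over the other 29 features the mean level differed 654-fold from the highest to the lowest. At the top were rpl32, a large-subunit protein, with a mean of 759 CPM per kb, and infA with 619.8. Their ranges over the libraries overlapped, at 184 to 1335 and 397 to 811 CPM per kb. Lower in the order came rpl14 at 182 and the rps7 copies at 163 and 153 CPM per kb. The lowest means were those of rpoB at 1.16, rpoC1 at 1.88 and rps3 at 1.95 CPM per kb, with matK next at 2.12. The ranges of rpoB, rpoC1 and matK also overlapped one another, at 0.328 to 1.79, 0.344 to 3.10 and 1.15 to 3.52 CPM per kb.

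**Figure D2:**
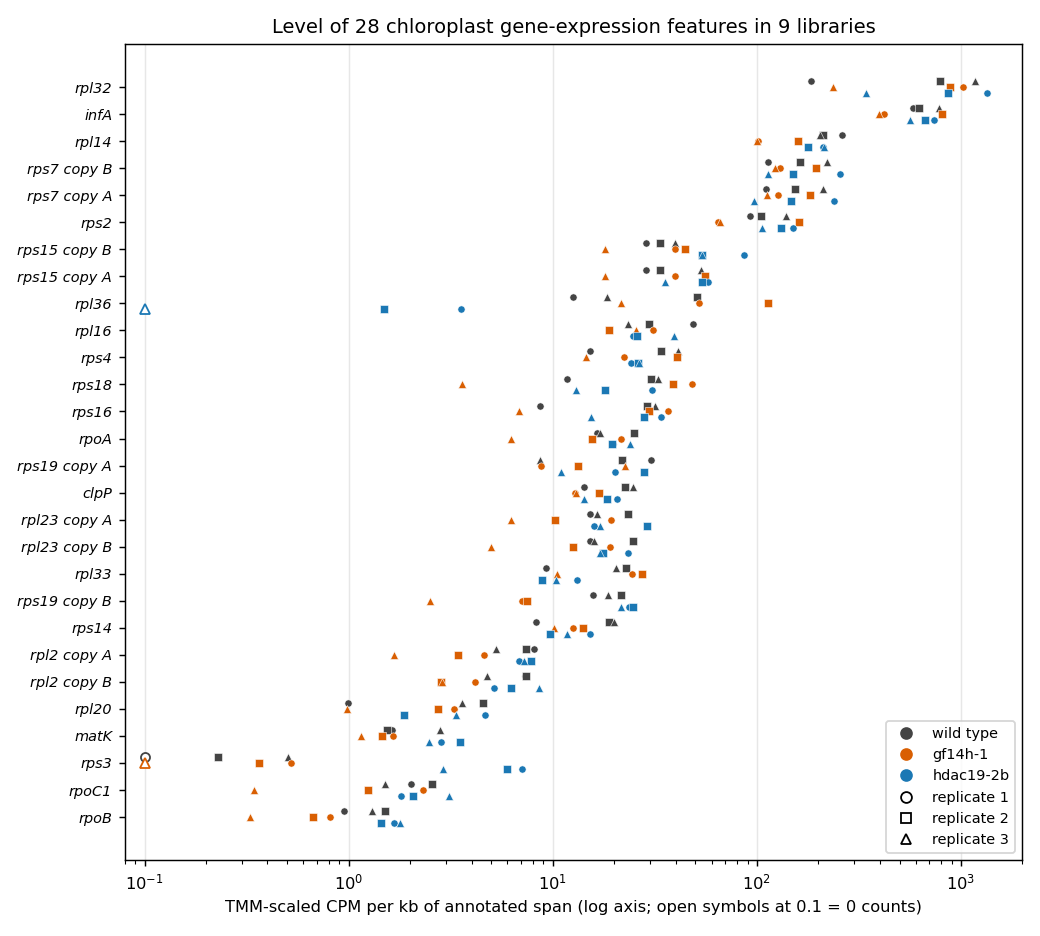
Level of the features reported by name (rps12 left out) as TMM-scaled CPM per kb of annotated span on a log axis, 1 symbol per library, coloured by genotype and shaped by replicate; open symbols mark 0 counts. The order runs from rpl32 at a mean of 759 down to rpoB at 1.16, and the symbols of one feature often spread over several fold.

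The polymerase genes rpoA, rpoB and rpoC1, for the alpha, beta and beta-prime subunits, were measured at low counts. For rpoB (19550 to 22780 on the chloroplast genome, plus strand) the CPM were 3.07, 4.84 and 4.20 in wild type replicates 1, 2 and 3, and 2.63, 2.16 and 1.06 in gf14h-1, where replicate 3 held only 3 counts. They were 5.37, 4.64 and 5.77 in hdac19-2b. Every gf14h-1 library lay below every library of both other genotypes, while wild type and hdac19-2b overlapped. The adjacent rpoC1 gave CPM of 4.14, 5.25 and 3.08 for wild type, 4.72, 2.56 and 0.706 for gf14h-1, and 3.70, 4.22 and 6.34 for hdac19-2b. All 3 genotypes overlapped there. For rpoA, which lies in a separate cluster of ribosomal protein genes, the means were 19.8 ± 4.82, 14.7 ± 7.85 and 21.4 ± 2.52 CPM (SD, n = 3) in wild type, gf14h-1 and hdac19-2b.

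The single-gene classes likewise overlapped between wild type and each mutant. The product of matK helps to splice chloroplast group II introns, and the gene sits inside the intron of trnK, whose span overlaps it. Its CPM were 2.50, 2.38 and 4.31 for wild type, 2.52, 2.23 and 1.76 for gf14h-1, and 4.33, 5.40 and 3.81 for hdac19-2b. The 2 mutants did not overlap with each other. For infA, which encodes a translation initiation factor, the means were 214 ± 33.4, 176 ± 75.5 and 213 ± 28.6 CPM (SD, n = 3) in the same order. For clpP, the proteolytic subunit of the Clp protease, CPM were 9.21, 14.7 and 16.1 for wild type, 8.37, 11.0 and 8.47 for gf14h-1, and 13.4, 12.0 and 9.26 for hdac19-2b.

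The spread among replicates was wide. The median SD of log2(CPM + 0.5) within a genotype was 0.50 over the 30 features, beside 0.44 over all 23898 features tested. It was widest for rps18, at 1.23, and rpl32, at 1.20, and narrowest for rpl14, at 0.25. For rpl32 the CPM were 33.1, 142 and 211 for wild type, 184, 159 and 42.3 for gf14h-1, and 240, 156 and 61.6 for hdac19-2b. Each genotype thus held a library at or below 61.6 CPM and another at or above 184. The same low libraries, wild type replicate 1 and gf14h-1 replicate 3, also gave the lowest values of rps16, at 9.43 and 7.41 CPM, against 16.7 to 39.8 in the other 7.

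In droughted gf14h-1 shoots most machinery transcripts had a level below wild type, by an amount that depended on replicate 3, and none differed beyond the test. None of the 30 features passed edgeR's quasi-likelihood test at a Benjamini-Hochberg adjusted p under 0.05, where 0.146% of all tested features did. With an unadjusted p under 0.05, 4 features stood out, all lower in gf14h-1, beside 7.56% of all tested features in both directions. The DESeq2 Wald test called 2, rpl14 and rps19 copy B, beside 1.43% of all features, and limma-trend called 0, beside 0.163%. Values leaned to the low side, with 22 of 30 log2 fold changes below 0 (50.4% of all tested features), 8 above 0 (49.6%) and a median of −0.33 beside −0.00 over all features tested. Without gf14h-1 replicate 3 the median was −0.08, beside −0.03 over all features tested, and 20 were below 0. The 30 features hold 5 genes as pairs of copies and are not independent. With copies summed and all libraries kept, 18 of 25 genes were below 0. In bulk shoots, fewer chloroplasts or green cells and less RNA per chloroplast cannot be told apart.

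The smallest p belonged to rpl14, a large-subunit protein gene (76137 to 76508, minus strand). Its CPM were 97.0, 78.7 and 76.1 in wild type and 37.6, 58.9 and 37.4 in gf14h-1. The groups did not overlap, and the log2 fold change was −0.90 (SE 0.23). Its adjusted p was 0.252 by edgeR's quasi-likelihood test. The DESeq2 Wald test gave an adjusted p of 0.0188 for it, and over all alternatives the adjusted p ran from 0.0188 to 1.

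The next features in that order, rps19 copy B and both rpl2 copies, lie in the inverted repeat, while rpoB and clpP, which followed, do not. For rps19 copy B (134869 to 135150, plus strand), a small-subunit protein gene, the CPM were 4.43, 6.07 and 5.24 in wild type and 1.99, 2.10 and 0.706 in gf14h-1. The groups did not overlap, and the log2 fold change was −1.61 (SE 0.44), with 2.27 estimated counts behind the lowest value. Copy A of the same gene (79497 to 79778, minus strand) gave overlapping CPM, at 8.50, 6.16 and 2.44 for wild type against 2.47, 3.74 and 6.35 for gf14h-1. For rpl2, a large-subunit protein gene, copy A had 12.0, 10.9 and 7.84 CPM in wild type against 6.87, 5.11 and 2.47 in gf14h-1, and copy B 10.9, 11.0 and 7.09 against 6.17, 4.20 and 4.23. Neither copy of rpl2 overlapped between the groups, and the log2 fold changes were −1.02 (SE 0.36) and −0.96 (SE 0.35). For rpoB the log2 fold change was −0.98 (SE 0.46) and for clpP −0.52 (SE 0.30). By edgeR's quasi-likelihood test, rps19 copy B had an adjusted p of 0.320, each rpl2 copy 0.519, rpoB 0.685 and clpP 0.797. Without gf14h-1 replicate 3 the log2 fold changes were −0.80 for rpl14, −1.36 for rps19 copy B, −0.77 and −0.88 for rpl2 copies A and B, −0.75 for rpoB and −0.47 for clpP, and none passed that test.

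In all, 5 features were lower in every gf14h-1 library than in every wild type library, namely rpl14, both rpl2 copies, rps19 copy B and rpoB, beside 6.68% of all tested features. No feature was higher in every gf14h-1 library, beside 5.18% of all tested features, and in either direction 5 of 30 stood beside 11.9%. By class, 9 of 14 small-subunit, 7 of 10 large-subunit and 3 of 3 polymerase features had log2 fold changes below 0, with medians of −0.18, −0.48 and −0.55. Without gf14h-1 replicate 3 these medians were 0.02, −0.27 and −0.18, so that the small-subunit median changed sign.

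**Figure D3:**
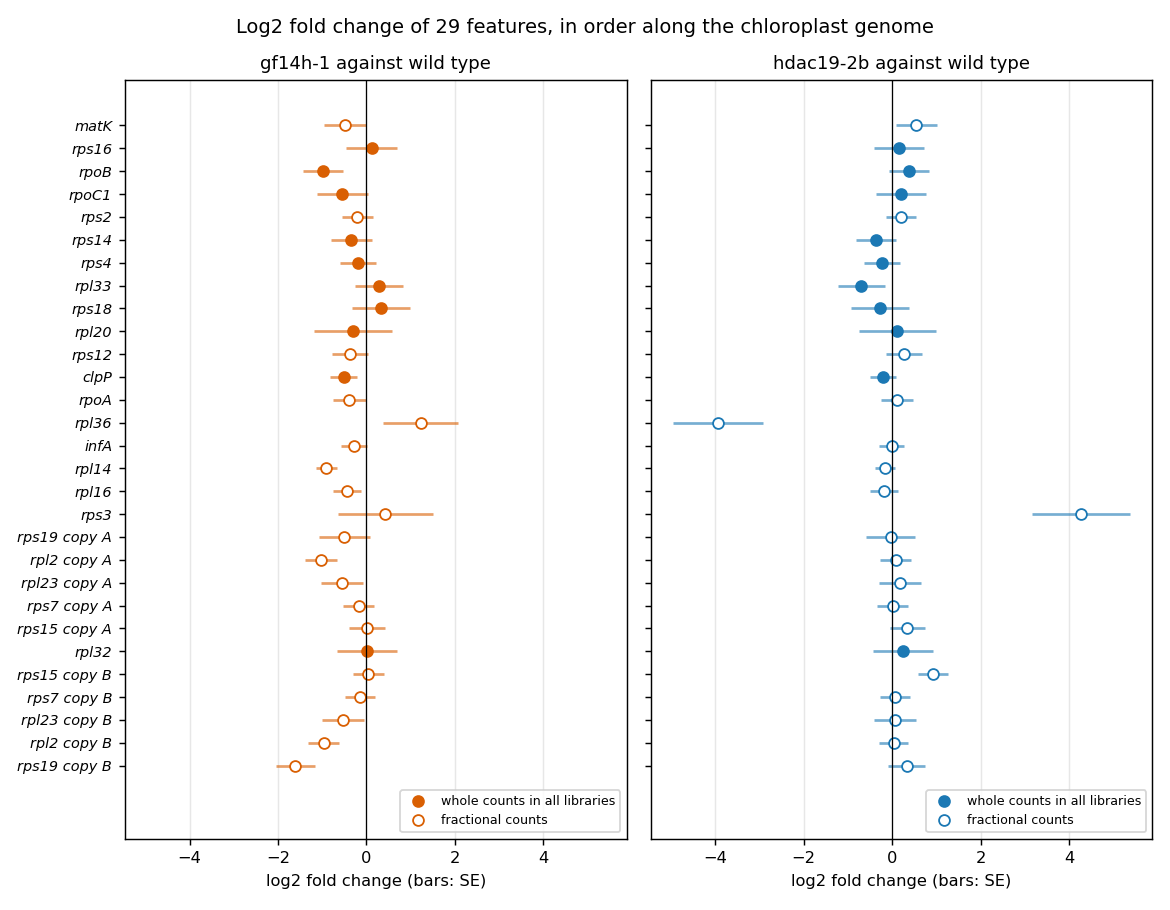
Log2 fold change against wild type (horizontal axis, bars SE) of the features reported by name, in their order along the chloroplast genome, for gf14h-1 (left) and hdac19-2b (right); filled symbols mark features with whole counts in all 9 libraries and open symbols those with fractional counts. Most points lie within 1 unit of 0; rpl36 at −3.93 and rps3 at 4.27 in hdac19-2b stand far out, and none passed the test.

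In droughted hdac19-2b shoots most machinery transcripts lay close to wild type, and a pair of weakly counted ribosomal protein genes lay far from it. Again none of the 30 features passed edgeR's quasi-likelihood test at an adjusted p under 0.05, where 0.272% of all tested features did, and 3 had an unadjusted p under 0.05 (7.19% of all tested features). The DESeq2 Wald test called 2, rpl36 and rps3, beside 2.24% of all features, and limma-trend called 0, beside 0.335%. The median log2 fold change was 0.07, beside 0.02 over all features tested, with 19 above 0 (52% of all tested features) and 11 below (48%). With copies summed, 15 of 25 genes were above 0. Apart from rpl36 and rps3, the log2 fold changes ran from −0.69 for rpl33 to 0.92 for rps15 copy B.

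The extremes were neighbours of one cluster. For rpl36, which encodes a small protein of the large subunit (74961 to 75074, minus strand), the CPM were 1.43, 5.83 and 2.10 in wild type and 0.404, 0.169 and 0 in hdac19-2b, which did not overlap. They were 5.96, 12.9 and 2.47 in gf14h-1. For rps3, a small-subunit protein gene (78198 to 78917, minus strand), the CPM were 0, 0.164 and 0.364 for wild type, 0.376, 0.262 and 0 for gf14h-1, and 5.08, 4.31 and 2.09 for hdac19-2b. Every hdac19-2b library lay above all the others. Against wild type the log2 fold changes were −3.93 (SE 1.01) for rpl36 and 4.27 (SE 1.11) for rps3, and edgeR's quasi-likelihood test gave them adjusted p of 0.183 and 0.185. In wild type, rps3 rested on at most 12.9 estimated counts a library, and in hdac19-2b rpl36 rested on at most 7.05. Leaving out 1 library moved both folds: rpl36 stood at −5.21 without hdac19-2b replicate 1 and −3.14 without wild type replicate 2, and rps3 at 5.44 without wild type replicate 3. Over all alternatives the adjusted p ran from 0.00423 to 0.643 and from 0.00225 to 0.633.

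For rps15 copy B, a small-subunit protein gene (113988 to 114260, minus strand), the CPM were 7.86, 9.19 and 10.8 in wild type and 23.5, 14.7 and 14.7 in hdac19-2b, without overlap. The log2 fold change was 0.92 (SE 0.35), and edgeR's quasi-likelihood test gave an adjusted p of 0.512. Copy A (100387 to 100659, plus strand) gave 7.86, 9.19 and 14.5 CPM in wild type and 15.7, 14.7 and 9.64 in hdac19-2b, which overlapped. For rpl33, a large-subunit protein gene, the values of 1.86, 4.60 and 4.12 CPM in wild type and 2.66, 1.77 and 2.09 in hdac19-2b overlapped, with a log2 fold change of −0.69 (SE 0.54). The log2 fold changes of matK and rpoB were 0.55 (SE 0.47) and 0.38 (SE 0.44), and rpl33, matK and rpoB each had an adjusted p of 1 in that test. In all, 3 features were higher in every hdac19-2b library than in every wild type library (rps3 and the B copies of rps15 and rps19) and 1 was lower (rpl36), beside 8.35% and 8.48% of all tested features, or 16.8% in either direction. For rps19 copy B the margin was narrow, with a lowest hdac19-2b value of 6.09 CPM against a highest wild type value of 6.07 CPM. With both copies of a gene summed, rps15 and rps19 overlapped between wild type and hdac19-2b. The rps15 sums were 15.6 to 25.2 against 24.3 to 39.2 CPM, and the rps19 sums 7.66 to 12.9 against 9.19 to 14.9 CPM.

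Set directly against each other, the mutants showed lower values in gf14h-1 for most of the machinery. None of the 30 features passed edgeR's quasi-likelihood test (0.0167% of all tested features did). With an unadjusted p under 0.05, 8 features stood out, 7 of them lower in gf14h-1 than in hdac19-2b, beside 9.03% of all tested features in both directions. The DESeq2 Wald test called 3, rpl36, rps3 and rps19 copy B, beside 1.11% of all features, and limma-trend called 0, beside 0.0209%. The log2 fold change was below 0 for 25 of 30 features (50.1% of all tested features) and above 0 for 5 (49.8%). The median was −0.41, beside −0.00 over all features tested. Without gf14h-1 replicate 3 it was −0.23, beside −0.02, and without hdac19-2b replicate 1 it was −0.26, beside −0.00. With copies summed and all libraries kept, 20 of 25 genes were below 0. Without overlap between the mutants, 8 features were lower in gf14h-1 and 1 was higher, beside 7.82% and 6.22% of all tested features, or 14% in either direction.

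The 6 features with the smallest p between the mutants were rpl36, with a log2 fold change of 5.16 (SE 1.05) in gf14h-1 over hdac19-2b, rps19 copy B with −1.94 (SE 0.44), rps3 with −3.84 (SE 1.12), rpl14 with −0.74 (SE 0.23), rpl2 copy A with −1.10 (SE 0.37) and rpoB with −1.36 (SE 0.46). In the order named, edgeR's quasi-likelihood test gave adjusted p of 0.297, 0.297, 0.393, 0.404, 0.432 and 0.439. With both copies summed, rps19 stood at −1.10 (SE 0.34) in place of the value of copy B. Without gf14h-1 replicate 3 the values, in the same order, were 5.54, −1.68, −3.55, −0.63, −0.85 and −1.13, and rpl36 stood at 6.44 without hdac19-2b replicate 1. For rpl14, rpl2 copy A and rpoB the wild type values overlapped with those of hdac19-2b, at log2 fold changes of −0.16, 0.08 and 0.38 for hdac19-2b against wild type. For rps19 copy B the hdac19-2b values were 6.70, 7.01 and 6.09 CPM. All lay above every wild type library, but the highest of those had 6.07 CPM, and the log2 fold change was 0.33. The sums of both copies overlapped. In 3 of the 30 features (matK, rpoB and rps19 copy B) every gf14h-1 library lay below the wild type mean and every hdac19-2b library above it, beside 2.25% of all tested features, or 3.58% with the opposite pattern included. The summed rps19 copies did not follow this, with hdac19-2b replicate 3 at 9.19 CPM, below the wild type mean of 10.9 CPM.

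The deposited counts were estimates, in part fractional, and this touched the features unequally. In 10 of the 30 features the value was whole in all 9 libraries (rps16, rpoB, rpoC1, rps14, rps4, rpl33, rps18, rpl20, clpP and rpl32). The other 20 had a fractional value in at least 1 library, 16 of them in all 9. The 10 whole-count features had log2 fold changes from −0.98 to 0.33 in gf14h-1 and from −0.69 to 0.38 in hdac19-2b. Of the 5 features that did not overlap between gf14h-1 and wild type, 1 was among them (rpoB), and of the 4 that did not overlap between hdac19-2b and wild type, none was. The part of the count estimation in these differences was not tested.

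The cluster from rpl23 copy A to rpoA (73264 to 81825, minus strand) was examined over 9 of its features. Their sum stood at 399.6, 378 and 396 CPM for wild type, 261, 389 and 223 for gf14h-1, and 400.1, 371 and 364 for hdac19-2b. Wild type and hdac19-2b overlapped closely, at 391 ± 11.7 and 378 ± 19.0 CPM (SD, n = 3), and gf14h-1, at 291 ± 87.2 CPM, overlapped with both. Of the summed counts, infA took 47.2% to 67.4% and rpl14 14.4% to 24.2% in the 9 libraries.

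The shares of rpl36 and rps3 spanned the widest ranges, as ratios, over the 9 libraries. As a share of the counts of these 9 features, rpl36 made up 0.366% to 1.55% in wild type, 1.07% to 3.31% in gf14h-1 and 0.00259% to 0.102% in hdac19-2b. For rps3 the share was 0.580% to 1.28% in hdac19-2b, and no higher than 0.0913% in any wild type and 0.134% in any gf14h-1 library. Both rpl36 and rps3 carried fractional counts.

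**Figure D4:**
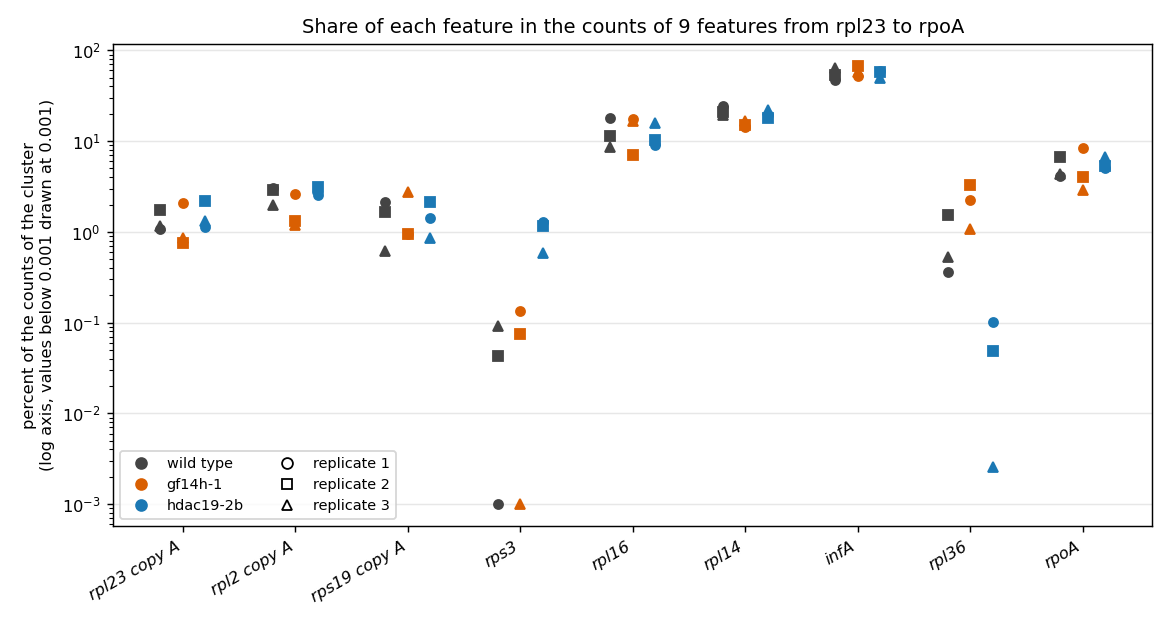
Share of each feature in the summed counts of 9 features of the cluster from rpl23 copy A to rpoA (vertical axis, percent, log scale; values below 0.001 drawn at 0.001), in gene order, 1 symbol per library. infA lies at the top in all libraries, at 47.2% to 67.4%, while rpl36 is lowest in the 3 hdac19-2b libraries and rps3 highest there.

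The 5 inverted-repeat genes were listed as copies A and B, and reads from copies that share their sequence cannot be assigned to one. For rps7, a small-subunit protein gene, copy B held 50.4% to 53.9% of the pair's counts in the 9 libraries. The share of copy B spread from 42.7% to 60.2% for rps15, from 37.9% to 59.1% for rpl23, a large-subunit protein gene, and from 43.0% to 61.9% for rpl2. It was widest for rps19, from 11.4% in gf14h-1 replicate 3 to 68.1% in wild type replicate 3.

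Counts were also summed over both copies of a gene. The rps19 pair summed to 10.9 ± 2.84 CPM in wild type, 5.75 ± 1.27 in gf14h-1 and 12.2 ± 2.85 in hdac19-2b (SD, n = 3). With the copies summed, the log2 fold change of rps19 in gf14h-1 against wild type was −0.94 (SE 0.34), in place of −1.61 for copy B alone. The rpl2 pair stood at 19.9 ± 4.33, 9.72 ± 3.07 and 20.6 ± 2.86 CPM, with a log2 fold change of −0.99 (SE 0.29) in gf14h-1. The rps15 pair stood at 19.7 ± 4.94, 19.7 ± 8.94 and 30.9 ± 7.57 CPM, with a log2 fold change of 0.65 (SE 0.35) in hdac19-2b. For these 3, edgeR's quasi-likelihood test gave adjusted p of 0.519, 0.358 and 0.850. For rps7 and rpl23 the summed log2 fold changes were −0.16 and −0.56 in gf14h-1 and 0.04 and 0.12 in hdac19-2b.

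**Figure D5:**
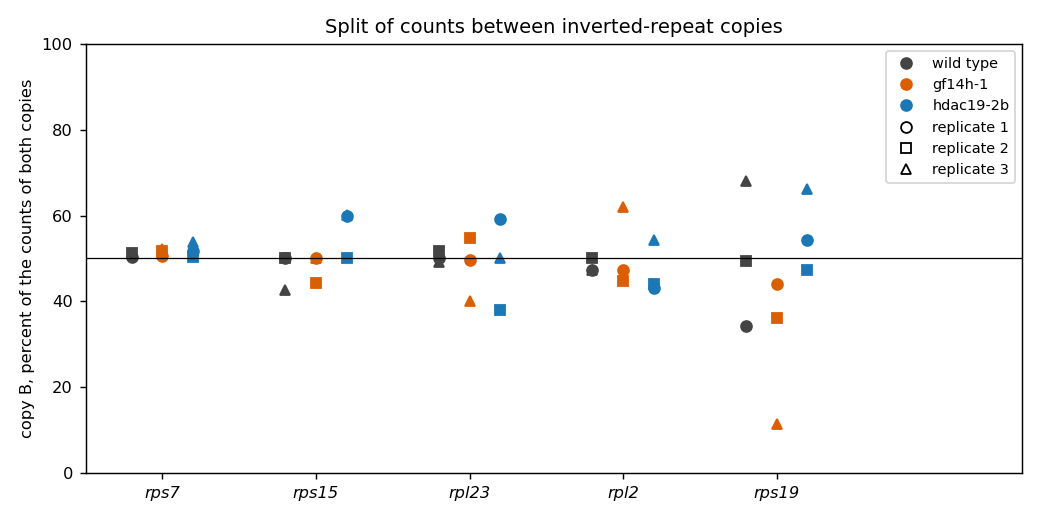
Share of copy B in the counts of both inverted-repeat copies (vertical axis, percent; the line marks an even split) for 5 genes, 1 symbol per library. All rps7 symbols lie between 50.4% and 53.9%, while rps19 runs from 11.4% to 68.1%.

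Other chloroplast genes served for comparison. None of the 13 tested photosystem II, 3 photosystem I, 4 cytochrome b6f, 6 ATP synthase and 11 NADH dehydrogenase-like complex features passed edgeR's quasi-likelihood test in either mutant against wild type. In gf14h-1 their median log2 fold changes were −0.12, −0.49, −0.19, −0.25 and −0.07, beside −0.33 for the 30 machinery features. Without gf14h-1 replicate 3 they were −0.02, −0.24, 0.10, −0.09 and 0.22, beside −0.08, with 1 more photosystem II and 1 more cytochrome b6f feature tested. In hdac19-2b they were −0.25, −0.62, 0.01, 0.04 and −0.03, beside 0.07. For gf14h-1 the median of the 8 rRNA features was 0.20, and for hdac19-2b it was −0.29, while rbcL stood at −0.24 and −0.30. Without gf14h-1 replicate 3 the rRNA median for gf14h-1 was −0.47. None of these passed.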

How the data were processed

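The authors deposited estimated counts per annotated feature, with 10 of the 30 features whole in every library (to within 0.001) and the rest partly fractional; values were rounded to whole numbers. They also deposited a normalized signal table, a median-ratio normalization by its name, with the annotation. Dividing it by what 1 read is worth in each library returned whole reads for 99.9% to 100% of values (tolerance 0.1). Those reads equalled the rounded counts for 99.9965% to 100% of the values of a library. The same fit on them, which called 35, 65 and 4 features, was therefore close to a repeat of the main fit. The signal table holds 28454 of the 28607 features. Tools named in the submitters' processing notes are HISAT2, Partek, DESeq2 and FastQC 0.11.9, without roles. The counting program, strand setting and build were not given in the sources used here. Coordinates are 1-based, with starts as deposited and ends 1 base before the deposited stop. They equal those of the RefSeq table of Brachypodium_distachyon_v3.0 for 29 of 30 features (not rps12).

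All 9 libraries were fitted together with edgeR 4.0.16 in R 4.3.3 (quasi-likelihood, genotype as the only term, TMM, default filter, 23898 features kept), with Benjamini-Hochberg adjustment over all of them. The SE is the absolute log2 fold change over the square root of F. Alternatives included DESeq2 1.42.0 and limma 3.58.1. The fit was tested on simulated counts with known changes. Replicates of each genotype differed by more than sampling noise, with chi-square over its degrees of freedom no lower than 18.9. The p-values set the difference between genotypes against the spread among replicates. The SE comes from the same fit and includes that spread. The floor of 3 counts covers counting error only. Named were the rpo genes, matK, infA, clpP, all inverted-repeat copies, the 6 smallest p per comparison, and the 3 highest and lowest levels per kb; rps16, rps18 and rps12 were singled out after their values were seen. Counts over the 30 features include a member that is not reported here by name. Members and lists were chosen with earlier results of these data known.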

Additional observations from a re-analysis of the deposited data

Results flagged for a closer look

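In groups of 3 libraries single libraries were not tested as outliers. In 3 of the 30 features all gf14h-1 libraries lay on one side of the wild type mean and all hdac19-2b libraries on the other, below it in gf14h-1 and above it in hdac19-2b. Of all tested features 3.58% lay on opposite sides, and 2.25% in this direction. These were matK, rpoB and rps19 copy B, with log2 fold changes of −1.03, −1.36 and −1.94 for gf14h-1 against hdac19-2b. The difference between the mutants was tested in the direct comparison, where none passed edgeR's quasi-likelihood test (Benjamini-Hochberg adjusted p 0.567, 0.439 and 0.297). Of the 3, rpoB had whole counts in all libraries, and the others had fractional counts. With both copies summed, rps19 did not show this pattern. Its sum in hdac19-2b replicate 3 was 9.19 CPM, below the wild type mean of 10.9 CPM. The summed log2 fold change between the mutants was −1.10 (SE 0.34).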

How the results depend on the processing

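The count of members called was 0 in each comparison in every setting but the DESeq2 Wald test, where it was 2 in gf14h-1, 2 in hdac19-2b and 3 between the mutants; the cause was not tested. The DESeq2 Wald test called 352, 563 and 279 of all features in these comparisons, against 35, 65 and 4 in edgeR's quasi-likelihood test. A fit of only the 6 libraries compared gave 4, 235 and 1. Leaving out 1 library gave 4 to 51, 2 to 190 and 2 to 7, with 0 members called each time. With the replicate block the counts of all features were 4, 12 and 2; the labels give shared numbers but no shared batch, same-numbered libraries did not deviate together (correlations of −0.177 to 0.0158), and the block changed no call of a member. The fold changes of the 6 features with the smallest p in each comparison kept their direction in all alternatives; other features were not followed one by one. With library sizes set to the chloroplast counts, the median over all features moved from 0.02 to 0.25 in hdac19-2b and from −0.00 to −0.17 between the mutants; the machinery features then had medians of 0.30 and −0.52, and −0.16 in gf14h-1. The median in hdac19-2b was −0.10 without hdac19-2b replicate 1 and −0.03 without wild type replicate 1; in gf14h-1 it was −0.51 without wild type replicate 1. As a share of all counts of the library, the machinery features held 0.11%, 0.0922% and 0.122% in wild type, gf14h-1 and hdac19-2b, another denominator by construction. The group means of their share of chloroplast counts were 8.27%, 7.64% and 10.1%, and without gf14h-1 replicate 3 the gf14h-1 mean was 9.83%. Leaving out 1 library gave 7.81% to 8.70%, 6.37% to 9.83% and 9.47% to 10.6%. Depth limits the gf14h-1 replicate 3 values most, with 3 counts for rpoB, 2 for rpoC1, 1 for rpl20 and 2.27 for rps19 copy B.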
